A study of Mus musculus with 6 samples.

Results

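The genes of Notch signalling described here are 10 genes of the mouse: the receptors Notch1, Notch2, Notch3 and Notch4, the ligands Jag1, Jag2, Dll1 and Dll4, and the transcriptional repressors Hes1 and Hey1, which are targets of the pathway. They were taken by gene symbol from the annotation of the array, and all 10 were found among the 19505 genes compared, each with 1 probe set. They were chosen with earlier results of these data known, but by name and not by their values. Transcripts were measured on 6 Affymetrix arrays of salivary glands from mouse embryos at a stage labelled T13: 3 arrays of glands exposed to TGF-β1, a secreted growth factor, and 3 of untreated glands, all cultured for 72 hours. The study asked what happens to the glands under TGF-β1. Neither the dose, the mouse strain nor the type of salivary gland is given in the sources used here. Whether the replicates are separate cultures or animals is not stated, and p-values here cover the spread among these arrays alone, which could be technical.

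Notch receptors are membrane proteins that are activated by ligands on a neighbouring cell. Binding lets proteases release the intracellular domain, which enters the nucleus, joins the DNA-binding protein RBPJ and switches on genes such as Hes1 and Hey1. Their products are basic helix-loop-helix repressors. In branching organs the pathway is known for directing neighbouring cells to different fates, and in blood vessels for arterial identity and for the muscle-like mural cells around the endothelium.

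Array control 3 stood apart: its Pearson correlation with the others over all genes was 0.550 to 0.601, against 0.974 to 0.990 among TGF-β1 1 and 2 and controls 1 and 2. The correlation of TGF-β1 3 with these 4 was 0.948 to 0.953. The values given are deposited log2 expression values, 1 per gene and array. No measure of background is given, levels of different genes are not compared, and whole glands do not tell fewer cells of a type from less RNA per cell. Cdh1, which encodes the epithelial adhesion protein E-cadherin, was at 12.83, 12.80 and 11.63 in TGF-β1 arrays 1 to 3 and at 12.45, 11.95 and 8.30 in controls 1 to 3. Dcn, a proteoglycan of connective tissue, was at 12.55, 12.37 and 13.22 in TGF-β1 arrays and at 13.02, 13.19 and 7.18 in controls. In control 3, 8 of 10 epithelial and 5 of 7 measured mesenchymal markers were at the lowest level of the 6 arrays. So were 6 of 6 measured housekeeping genes, with Gapdh at 6.21, against 11.87 to 11.98 in the other arrays. The same held for only 3 of 6 measured ganglion neuron, 2 of 8 mural cell, 1 of 6 measured leukocyte and 0 of 10 endothelial markers. Over all genes, control 3 lay outside the range of the other 5 arrays, above or below, in 84.4%. Whether this column holds the sample its label names could not be settled from the deposited table, and every control mean and equal-weight difference over 6 arrays includes it. The difference of each member is therefore given with all 6 arrays and also without control 3.

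Between TGF-β1 and control glands, Notch3 and Hey1 had the largest differences of the 10 genes outside the 2 deviating arrays. In TGF-β1 1 and 2 against controls 1 and 2, Notch3 was higher by 1.08 ± 0.15 and Hey1 by 1.21 ± 0.42 (log2 units, moderated SE of limma, n = 2 each). This SE draws on the spread of all genes and is not the spread of these 4 arrays alone. The difference of the other 8 genes lay between -0.27 and 0.43. TGF-β1 3 did not share the higher levels of Notch3 and Hey1: its Notch3 value was the lowest of all 6 arrays. No member passed an adjusted p of 0.05 in the limma fit that gave all 6 arrays equal weight, where 0% of all genes passed and 0 of 10 members had an unadjusted p under 0.05 (1.99% of all genes). Only Notch3 passed when limma weighted each array by its reliability, a fit in which 6.88% of all genes passed.

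**Figure D1:**
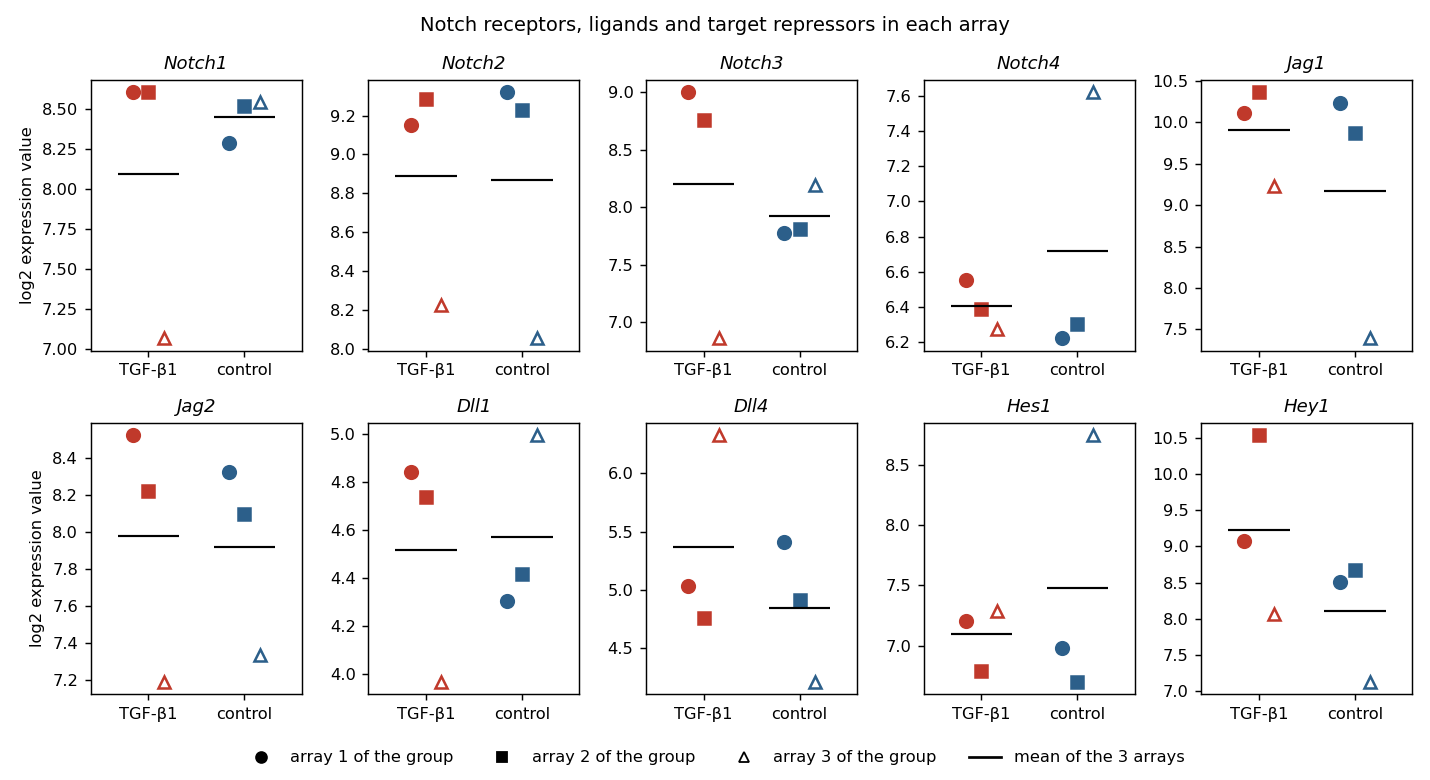
Log2 expression value of each of the 10 Notch genes (vertical axes, each with its own range) in the 3 TGF-β1 arrays (red) and the 3 control arrays (blue); symbols mark the array number and bars the mean of 3 arrays. TGF-β1 3 is the lowest of the 3 TGF-β1 arrays for 8 of the 10 genes, and control 3 lies at least 1 log2 unit from the mean of controls 1 and 2 for 5.

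Among the receptors, Notch3, known for its role in the mural cells of vessels, was at 9.002, 8.76 and 6.86 in TGF-β1 arrays 1 to 3, against 7.78, 7.81 and 8.19 in controls 1 to 3. TGF-β1 1 and 2 lay above every control and TGF-β1 3 below every control, so the groups overlapped. The mean was 8.21 ± 1.17 in TGF-β1 arrays and 7.93 ± 0.23 in controls (SD, n = 3 each), a difference of 0.28 with a 95% interval from -1.11 to 1.66 (limma, adjusted p = 0.834). With array weights, which gave TGF-β1 3 a weight of 0.398 and control 3 one of 0.0338 against 1.65 to 4.52 for the others, the difference was 0.99 ± 0.25 (limma, adjusted p = 0.0352), a fold change of 1.99 with an interval from 1.36 to 2.91. Without control 3 and TGF-β1 3 it was 1.08, a fold change of 2.12 (interval from 1.65 to 2.73). It passed there (limma, adjusted p = 0.0244), in a fit where 2.59% of all genes passed. Both fits rest mainly on TGF-β1 1 and 2 and controls 1 and 2, so these passes are not separate support. The arrays left out or given low weight were those that deviated in these same data. The p-values of the weighted fit are also too small, because its weights enter as if known. It did not pass without control 3 alone, with weights (1.01, limma, adjusted p = 0.115) or without them (0.41, limma, adjusted p = 0.948). With all arrays at equal weight and TGF-β1 1 left out, the difference was -0.12 (limma, adjusted p = 0.957).

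Notch1, a receptor required for vessel and T cell development, was at 8.61, 8.61 and 7.07 in TGF-β1 arrays and at 8.29, 8.52 and 8.54 in controls. As for Notch3, TGF-β1 3 was the lowest of all 6 arrays; unlike Notch3, TGF-β1 1 and 2 lay only slightly above the controls. The difference was -0.36 (interval from -1.49 to 0.77), -0.31 without control 3 (interval from -1.51 to 0.88), and 0.06 with array weights (interval from -0.39 to 0.51). Notch2, a widely expressed receptor, was at 9.15, 9.28 and 8.23 in TGF-β1 arrays and at 9.32, 9.23 and 8.05 in controls. Its array 3 was the lowest in both groups, and the arrays numbered 1 and 2 overlapped. The difference was 0.02 (interval from -1.12 to 1.16), -0.39 without control 3 (interval from -1.21 to 0.43), and -0.11 with array weights (interval from -0.48 to 0.27). Changes of 1 log2 unit lay outside the weighted intervals of both genes, but these intervals are too narrow, because the weights enter as if known. At equal weight, a fall of 1 log2 unit lay inside the intervals of both genes, and a rise of 1 inside that of Notch2. Without control 3, a fall of 1 lay inside both intervals.

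Notch4, a receptor of endothelial cells, was at 6.55, 6.39 and 6.27 in TGF-β1 arrays and at 6.22, 6.31 and 7.62 in controls. Control 3 was the highest array, and the other 5 lay close together. The unweighted difference of -0.31 (interval from -1.36 to 0.74) turned to 0.14 without control 3 (interval from -0.26 to 0.55).

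Of the ligands, Jag1, a Serrate-type ligand with a role in many developing organs, was at 10.12, 10.36 and 9.23 in TGF-β1 arrays and at 10.23, 9.87 and 7.39 in controls. The 2 groups overlapped apart from the low control 3. The difference of 0.74 (interval from -1.07 to 2.55) was carried by that array: without it the difference was -0.15 (interval from -1.02 to 0.72). Jag2, the related ligand known from epithelia and from limb and craniofacial development, was at 8.52, 8.22 and 7.19 in TGF-β1 arrays and at 8.33, 8.10 and 7.34 in controls. Here array 3 was the lowest of each group, and the difference was 0.06 (interval from -1.05 to 1.16), or -0.23 without control 3 (interval from -1.20 to 0.74).

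The Delta-type ligands were dim. Dll1, which acts in somites and neural tissue, was at 4.84, 4.74 and 3.97 in TGF-β1 arrays and at 4.30, 4.42 and 4.997 in controls, each time below the lower quartile of that array (5.11 to 5.79). TGF-β1 1 and 2 were above controls 1 and 2, TGF-β1 3 was the lowest array and control 3 the highest. The difference was -0.06 (interval from -0.96 to 0.85), 0.16 without control 3 (interval from -0.55 to 0.87), and with array weights 0.37 ± 0.16 (limma, adjusted p = 0.214).

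Dll4, a ligand of arterial and sprouting endothelium, was at 5.03, 4.76 and 6.33 in TGF-β1 arrays and at 5.41, 4.92 and 4.22 in controls. It was the only member far higher in TGF-β1 3 than in TGF-β1 1 and 2, by 1.43, and 4 of the 6 values lay below the lower quartile of their array. The difference was 0.53 (interval from -0.71 to 1.76), 0.21 without control 3 (interval from -0.96 to 1.38), and -0.27 without control 3 and TGF-β1 3 (interval from -0.75 to 0.21).

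Of the target repressors, Hey1, a repressor known from heart and vessel development, was at 9.07, 10.54 and 8.06 in TGF-β1 arrays and at 8.51, 8.68 and 7.13 in controls. TGF-β1 1 and 2 were above all controls, but they differed from each other by 1.47, more than TGF-β1 1 differed from controls 1 and 2, and TGF-β1 3 lay below controls 1 and 2. The mean was 9.22 ± 1.25 in TGF-β1 arrays and 8.11 ± 0.85 in controls (SD, n = 3 each), a difference of 1.12 (interval from -0.55 to 2.79; limma, adjusted p = 0.776). With array weights it was 0.88 ± 0.36 (limma, adjusted p = 0.194), and without control 3 it was 0.63 (interval from -0.999 to 2.26). Hey1 was above 0 in each of these fits and passed in none.

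Hes1, the most widely used Notch target and also a target of other signals, was at 7.20, 6.79 and 7.29 in TGF-β1 arrays and at 6.98, 6.70 and 8.75 in controls. Control 3 was the highest array, and the other 5 spanned 6.70 to 7.29. The difference was -0.38 (interval from -1.72 to 0.95), and 0.25 without control 3 (interval from -0.28 to 0.78).

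**Figure D2:**
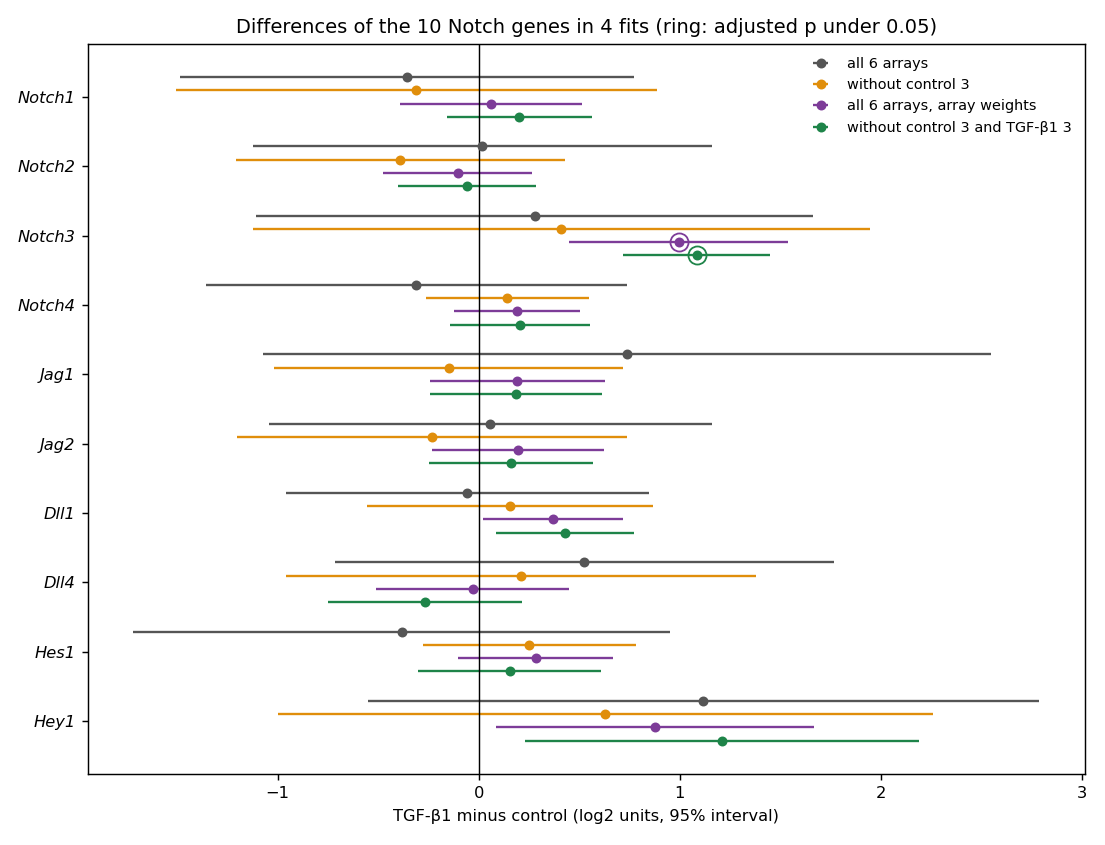
Difference between TGF-β1 and control glands (log2 units, horizontal axis) with its 95% interval for the 10 genes in 4 limma fits, one colour each; a ring marks an adjusted p under 0.05. Only Notch3 has rings, in the array-weighted fit (0.99) and without control 3 and TGF-β1 3 (1.08), and the intervals with all 6 arrays at equal weight reach both sides of 0 for every gene.

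Over the 10 genes the median difference was 0.04 with all 6 arrays, against -0.14 over all genes, and 0.19 with array weights, against 0.01 over all genes. In 0 of the 10 members did the 3 TGF-β1 arrays lie clear of the 3 controls, against 11.6% of all genes. In 5 members TGF-β1 1 and 2 were both above controls 1 and 2 (24.4% of all genes), namely Notch1, Notch3, Notch4, Dll1 and Hey1, and in 0 members both below (23% of all genes).

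In TGF-β1 3 the members lay low more often than genes in general, but in control 3 they deviated no more often than genes in general. TGF-β1 3 lay below TGF-β1 1 and 2 in 8 of the 10 members, against 43.1% of all genes, with Dll4 and Hes1 the exceptions. The same held for 30 of the 42 other measured pathway genes described below, so it was not particular to the members. TGF-β1 3 lay at least 1 log2 unit below the mean of TGF-β1 1 and 2 in 5 members and in 3 of those 42 genes. Of all genes, 3.44% lay that low. The 5 members were Notch3 (-2.02), Hey1 (-1.74), Notch1 (-1.54), Jag2 (-1.18) and Jag1 (-1.01). For Notch2 this deviation was -0.99 and for Dll1 -0.82. TGF-β1 3 is 1 array, so these deviations have no replicate. Control 3 lay at least 1 log2 unit from the mean of controls 1 and 2 in 5 members (58.7% of all genes): lower in Jag1 (-2.66), Hey1 (-1.46) and Notch2 (-1.22), and higher in Hes1 (1.90) and Notch4 (1.36).

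Over all genes, the deviations of TGF-β1 3 and control 3 both moved with the length of the gene in the genome (RefSeq, GRCm38.p6, introns included), control 3 the more so. The median of control 3 minus the mean of controls 1 and 2 was 0.97 in the quintile with the shortest genes and -0.042 in the quintile with the longest. For TGF-β1 3 the median was 0.024 in the quintile with the shortest genes and -0.16 in the quintile with the longest, and the share of genes at least 1 log2 unit low was 0.743% and 7.69% in these. Notch1 (45921 bases), Notch3 (46077 bases) and Jag1 (35070 bases) are in the next to longest quintile, where that share was 4.05%. Hey1, with 3680 bases, is in the shortest. The part of gene length in the values of these arrays was not tested.

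**Figure D3:**
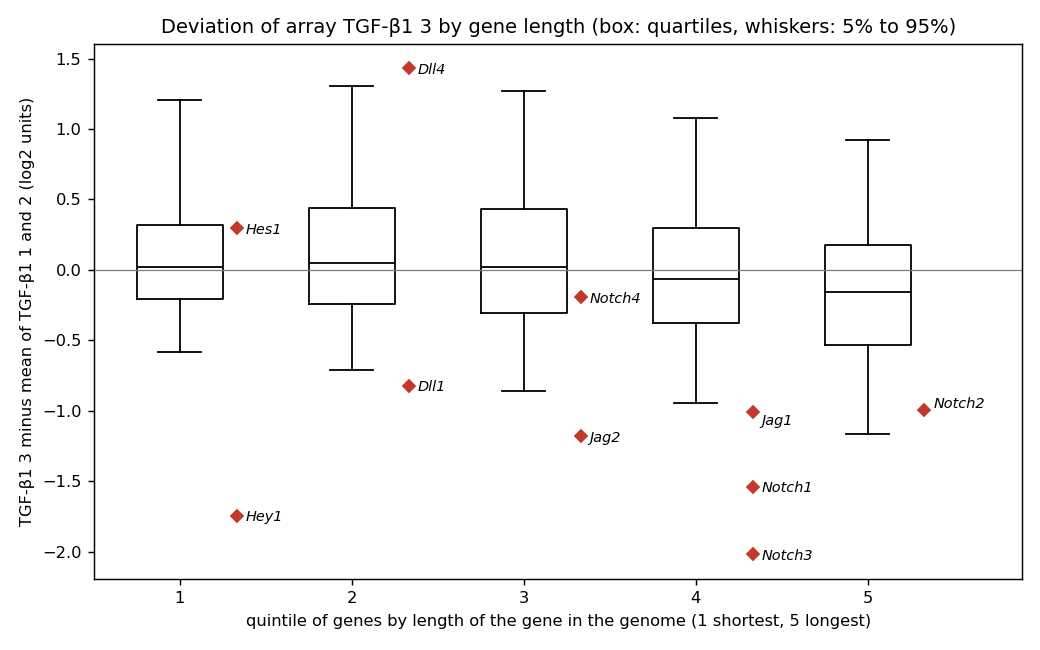
Log2 value of TGF-β1 3 minus the mean of TGF-β1 1 and 2 (vertical axis) for all genes in quintiles by gene length (boxes with quartiles, whiskers from 5% to 95% of genes) and for the 10 Notch genes (red diamonds). Notch3, Hey1, Notch1, Jag2, Jag1 and Dll1 lie below the whisker of their quintile, and Dll4 lies above it.

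The rest of the pathway was followed in 44 listed genes, of which 42 were measured. Of these, 0 passed in the unweighted fit, 1 with an unadjusted p under 0.05 there, and with array weights 2 passed as higher (3.45% of all genes), 0 as lower (3.44%) and 40 did not pass. The share of the 42 that passed was thus near that of all genes. The 2 genes were Lfng, a sugar transferase of the Fringe family that modifies Notch receptors and shifts their response between Delta and Jagged ligands, and Nrarp, an ankyrin-repeat protein that is induced by Notch and limits it.

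Lfng was at 7.87, 7.30 and 6.90 in TGF-β1 arrays 1 to 3, against 6.67, 6.38 and 5.94 in controls 1 to 3. Every TGF-β1 array lay above every control. The groups lay clear of each other, in either direction, in 7 of the 42 pathway genes and in 11.6% of all genes. The mean was 7.36 ± 0.49 in TGF-β1 arrays and 6.33 ± 0.37 in controls (SD, n = 3 each), a difference of 1.02 (interval from 0.12 to 1.93; limma, unadjusted p = 0.0321, adjusted p = 0.776). With array weights Lfng rose by 1.17 ± 0.20 (limma, adjusted p = 0.0050), a fold change of 2.25 (interval from 1.67 to 3.03). It also passed without control 3 with weights (1.11, limma, adjusted p = 0.0455), but not without control 3 and TGF-β1 3 (1.06, limma, adjusted p = 0.0575). Its difference lay between 0.77 and 1.25 whichever array was left out, and was 0.83 without control 3.

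Nrarp was at 6.66, 6.60 and 6.54 in TGF-β1 arrays and at 6.07, 6.10 and 6.76 in controls. The 3 TGF-β1 arrays lay close together above controls 1 and 2, and control 3 was the highest array. With array weights Nrarp rose by 0.54 ± 0.13 (limma, adjusted p = 0.0334), a fold change of 1.45 (interval from 1.19 to 1.78). The unweighted difference was 0.29 (interval from -0.49 to 1.06), or 0.51 without control 3 (limma, adjusted p = 0.455), and the adjusted p without control 3 and TGF-β1 3 was 0.101 (limma).

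**Figure D4:**
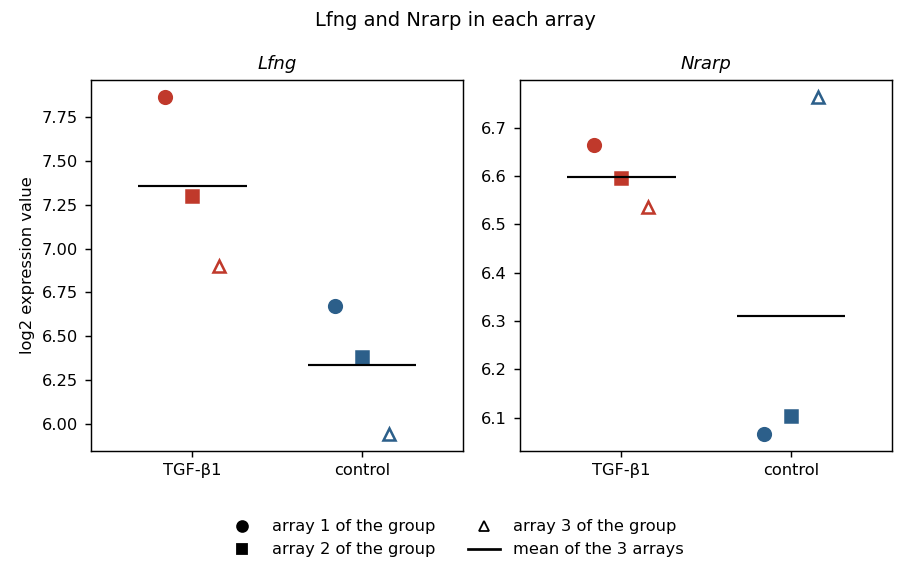
Log2 expression value of Lfng and Nrarp (vertical axes, each with its own range) in the 3 TGF-β1 arrays (red) and the 3 control arrays (blue); symbols mark the array number and bars the mean of 3 arrays. For Lfng the groups do not overlap, as in 11.6% of all genes in either direction, and for Nrarp control 3, at 6.76, lies above the TGF-β1 arrays.

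By role, the difference with array weights lay between -0.24 and 1.17 for the 5 sugar transferases, Lfng being the highest and the only one that passed. For the 8 measured proteases that release the receptor it lay between -0.46 and 0.50, and 0 passed; the one of smallest p was Aph1c, a subunit of γ-secretase, at -0.46 ± 0.13 (limma, adjusted p = 0.0659). For the 4 ubiquitin ligases of the ligands it lay between -0.12 and 0.52, highest for Neurl1b, which marks Delta-type ligands for uptake (limma, adjusted p = 0.0820). For the 8 measured genes of the nuclear complex and its co-repressors it lay between -0.28 and 0.39, highest for the co-activator Maml2 (limma, adjusted p = 0.211). For the 9 receptor regulators it lay between -0.43 and 0.54. Among the 3 ligand relatives the smallest p was that of Dll3, a divergent Delta protein, at -0.49 ± 0.18 (limma, adjusted p = 0.139). Of the 5 other Hes and Hey repressors 0 passed; the 5 differences were 0.04 to 0.32, with Hes6, a relative that counteracts Hes1, the highest (limma, adjusted p = 0.211), but 4 of the 5 were below 0 in the unweighted fit.

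**Figure D5:**
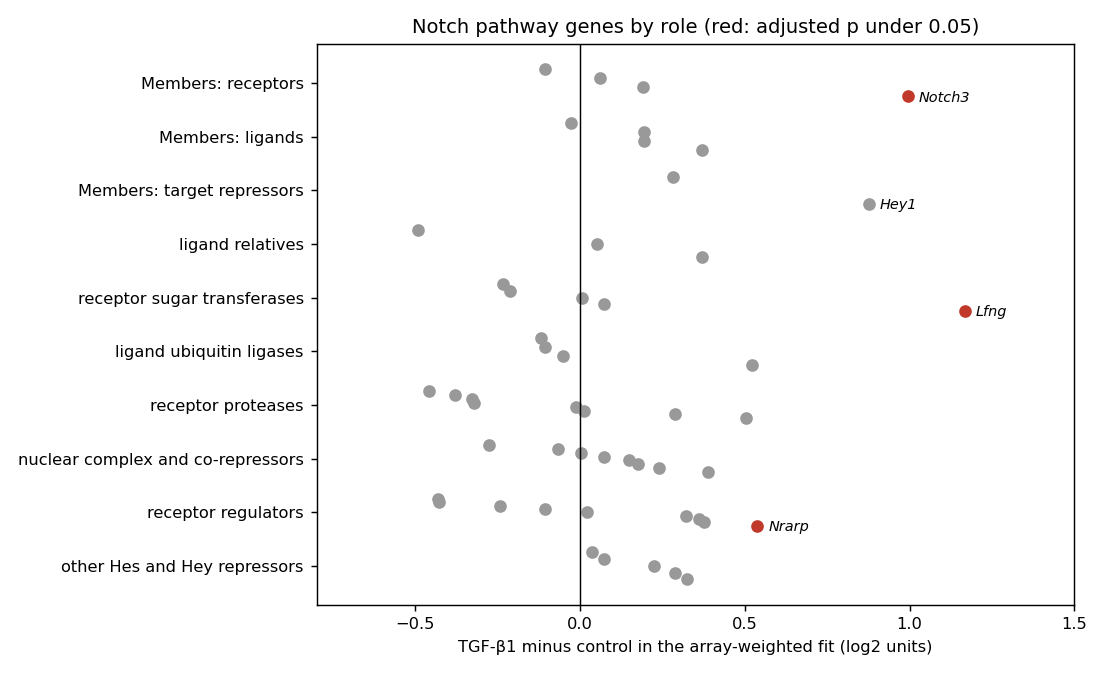
Difference between TGF-β1 and control glands in the array-weighted limma fit (log2 units, horizontal axis) for the 10 members and the 42 other measured pathway genes, in rows by role; each point is a gene, red where its adjusted p was under 0.05. Notch3 (0.99), Lfng (1.17) and Nrarp (0.54) are red, and Hey1 (0.88) is named but grey.

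The promoters of the 3 genes that passed with array weights are shown because these are the pathway genes that passed there. They are the 250 bases before and 50 after the annotated start in RefSeq (GRCm38.p6), where 8 of the 10 members matched and Hes1 and Hey1 did not; the authors' own build is not given in the sources used here. Capitals mark the core of the RBPJ motif, TGGGAA or its reverse complement TTCCCA, the sequence through which Notch acts on its targets.
Notch3, chr17:32166841-32167140, minus strand: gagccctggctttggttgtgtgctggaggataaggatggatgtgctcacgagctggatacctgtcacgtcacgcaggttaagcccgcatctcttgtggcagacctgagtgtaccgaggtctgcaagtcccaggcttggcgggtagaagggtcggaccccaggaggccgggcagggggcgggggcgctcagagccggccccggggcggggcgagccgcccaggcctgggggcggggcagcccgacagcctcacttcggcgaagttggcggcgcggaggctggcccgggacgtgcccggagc
Lfng, chr5:140607091-140607390, plus strand: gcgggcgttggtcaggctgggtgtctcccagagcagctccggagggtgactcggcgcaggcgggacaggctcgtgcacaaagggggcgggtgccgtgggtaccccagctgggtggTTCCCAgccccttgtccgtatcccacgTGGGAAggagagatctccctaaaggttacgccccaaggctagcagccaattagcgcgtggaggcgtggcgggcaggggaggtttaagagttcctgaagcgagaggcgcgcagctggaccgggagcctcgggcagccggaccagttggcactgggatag
Nrarp, chr2:25180508-25180807, plus strand: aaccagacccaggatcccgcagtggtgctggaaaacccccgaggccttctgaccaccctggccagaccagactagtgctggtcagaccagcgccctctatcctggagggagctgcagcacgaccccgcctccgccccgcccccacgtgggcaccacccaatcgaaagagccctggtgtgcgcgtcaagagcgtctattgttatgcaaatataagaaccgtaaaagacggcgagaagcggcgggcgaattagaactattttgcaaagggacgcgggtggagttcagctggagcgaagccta
Lfng held 2 matches, the first bases of which lie at -135 and -108 from the start, and the second overlaps the E-box CACGTG at -112. Nrarp held 1 E-box too, at -108, and 7.15% of all promoters held at least 1. Notch3 and Nrarp held 0 RBPJ matches in this window, as did all 9 promoters of the 8 matched members, while 25.6% of all 32851 promoters in the table held at least 1. The short Smad element CAGAC, searched on both strands, was found 2 times in the Notch3 window, 4 times in that of Nrarp and 0 times in that of Lfng, and in 49.6% of all promoters. A match is a run of letters and not a shown binding site.

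Markers of other cells were read beside these genes in the array-weighted fit, where 3.45% of all genes passed as higher and 3.44% as lower. Of 8 mural cell markers, 1 fell with array weights and 0 rose: Mcam, an adhesion molecule, by 1.53 ± 0.18 (limma, adjusted p = 6.63e-04). The summed level of the 8, on the linear scale, where the brightest probe sets count most, was 1380 to 1893 in TGF-β1 arrays. It was 2099 to 2523 in controls 1 and 2 and 1335 in control 3. Rgs5, a defining mural marker, was at 4.997, 5.04 and 5.29 in TGF-β1 arrays and at 5.11, 5.13 and 6.97 in controls. Outside control 3 it was dim, near the lower quartile of each array (5.11 to 5.15). Of 10 endothelial markers, 1 fell and 0 rose: Kdr, the VEGF receptor, by 1.35 ± 0.19 (limma, adjusted p = 0.0020). Their summed level was 601 to 903 in TGF-β1 arrays and 726 to 1277 in controls, highest in TGF-β1 3 among the TGF-β1 arrays and in control 3 among the controls. Dll4 was the highest of the 6 arrays in TGF-β1 3 and the lowest in control 3.

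Of 10 epithelial markers, Epcam and Cldn3 rose with array weights and 0 fell. The list did not move as one: Krt14 (-0.59), Krt19 (-0.56), Krt5 (-0.49) and Trp63 (-0.24) were below 0 in that fit without passing, and the others were above 0. The summed level of the list, in which the brightest probe sets count most, was 19752 to 27486 in TGF-β1 arrays. It was 15106 to 19951 in controls 1 and 2 and 3460 in control 3. Of 7 measured mesenchymal markers 1 fell, Twist1, and of 6 measured markers of ganglion neurons 3 rose, Tubb3, Elavl4 and Stmn2, with a summed level of 1591 to 2562 in TGF-β1 arrays and 883 to 1250 in controls. Of 6 measured leukocyte markers 0 passed. Without control 3 and TGF-β1 3, 1 epithelial marker passed as higher, 1 mural and 1 endothelial marker passed as lower, and 0 mesenchymal and 0 ganglion neuron markers passed. With all 6 arrays at equal weight, 0% of all genes passed. The part of these cell types in the values of the 10 members, Lfng and Nrarp was not tested.

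The genes most like each member were taken as those with the smallest root mean square difference of log2 values over the 6 arrays, each gene centred on its own mean. Predicted genes with Gm or Rik names and olfactory and vomeronasal receptors were left out of this search. For Notch3 this was Sema3f, a secreted guidance protein, at 0.216, and for Hey1 it was Tiam1, an activator of Rac, at 0.272. The closest pair was Notch4 with Hspa12a, a member of the heat shock protein family, at 0.0248. Jag1 was closest to Zfp280c (0.0482), Notch2 to Sh2b1 (0.0559), Dll1 to Amotl2 (0.0578), Hes1 to Mmd2 (0.0696), Dll4 to Psmg2 (0.0705), Jag2 to Ogt (0.0906) and Notch1 to Adamts9 (0.116). Sema3f was at 9.27, 9.19 and 7.55 in TGF-β1 arrays and at 8.74, 8.37 and 8.69 in controls, with TGF-β1 3 lowest as for Notch3. Without control 3, the closest gene stayed the same for Jag1 and differed for the other 9 members. These likenesses describe 6 arrays of which 1 or 2 deviate, and no member was the closest gene of another.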

How the data were processed

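The deposited table holds log2 values of 22206 probe sets on 6 arrays. Per the submitters' processing notes, the authors computed them with RMA, version not given, a method that generally corrects background, normalizes between arrays and summarizes probes. Per the labels' protocols, 6 µg of total RNA went into biotinylated cRNA. Arrays have no read depth, so their number limits the precision. The interquartile range was 2.05 in control 3 and 3.17 to 3.26 in the other columns.

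Exactly 1 gene symbol was annotated for 19572 probe sets, several for 0, and 2634 were unnamed here. Of several probe sets of a gene, the one with the highest mean was kept, leaving 19505 genes, all of which entered the fits (limma 3.58.1, R 4.3.3, two-sided, group as the only term, Benjamini-Hochberg adjustment over all genes). No filter or rescaling was applied. A difference is TGF-β1 minus control on the log2 scale, intervals are 95%, and passing means an adjusted p under 0.05. Each SE is the moderated SE of limma, which draws on the spread of all genes. "Rose" and "fell" refer to the array-weighted fit. Its weights (arrayWeights) were estimated without reaching convergence and enter as if known, so its p-values are too small and its intervals too narrow.

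The members and lists were chosen with earlier results of these data known. The text names all members, the other pathway genes that passed with array weights, the gene of smallest p in roles where none passed, the nearest gene of each member and markers of other cells. Both groups share replicate numbers, but deviations of same-numbered arrays from their group means correlated at -0.066, -0.0078 and -0.050, so arrays were not treated as pairs.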

Additional observations from a re-analysis of the deposited data

How the results depend on the processing

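With all 6 arrays at equal weight 0 members, 0 other pathway genes and 0 of all genes passed. With array weights these counts were 1, 2 and 1342, without control 3 and TGF-β1 3 they were 1, 0 and 505, and without control 3 with array weights 0, 1 and 544. They were 0 under every other alternative (each array left out in turn, quantile normalization, median centring, the dimmest of 3 equal parts of the genes left out, the mean of probe sets, a trended and robust prior, and the replicate block). The replicate number as a block cannot change a difference when every block holds 1 array of each group, and it changed no call. It did change the SE. For Hey1, at 1.12, the SE fell from 0.71 to 0.42 (limma, unadjusted p = 0.0440, adjusted p = 0.800), and for Dll4 it rose from 0.53 to 0.60. The pairing has no basis beyond the shared number. Leaving out the dimmest genes removed Dll1 and Dll4.

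Over the 10 members, 34 of 148 alternative values had the opposite sign, 2 passed (Notch3) and 112 kept sign and side of the threshold. Part of the 112 could not change sign. Each member has 1 probe set, so the mean of probe sets left its difference as it was. The prior, the omission of dim genes and the replicate block do not alter a difference either. With array weights the sign turned for Notch1 (0.060), Notch2 (-0.11), Notch4 (0.19), Dll1 (0.37), Dll4 (-0.029) and Hes1 (0.28). Without control 3 and TGF-β1 3 it turned for Notch1 (0.20), Notch2 (-0.058), Notch4 (0.21), Dll1 (0.43), Dll4 (-0.27) and Hes1 (0.15), and without control 3 with array weights for Notch1 (0.12), Notch2 (-0.13), Notch4 (0.22), Dll1 (0.40), Dll4 (-0.15) and Hes1 (0.23). Quantile normalization turned Notch2 (-0.19), Jag2 (-0.011) and Dll1 (0.17). With 1 array left out, differences ranged from -0.61 to 0.16 for Notch1, -0.39 to 0.35 for Notch2, -0.12 to 0.95 for Notch3, -0.56 to 0.14 for Notch4, -0.15 to 1.27 for Jag1, -0.23 to 0.45 for Jag2, -0.22 to 0.22 for Dll1, -0.77 to 0.25 for Hes1 and -0.10 to 0.38 for Hes6. Those of Hey1 (0.46 to 1.70) and Dll4 (0.05 to 0.83) kept their sign. The adjusted p of Notch3 ranged from 0.0244 to 0.999. Apart from the omission of those 2 arrays and their lower weights, the cause of these shifts was not tested. The scale of single differences is limited by 3 arrays per group.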
